A study of Homo sapiens with 14 samples.

Results

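The insulin-like growth factor binding proteins (IGFBPs) are secreted proteins encoded by 7 human genes, IGFBP1 to IGFBP7, and their transcripts were followed here in A549 lung cancer cells and SUM159 breast cancer cells exposed to cell cycle inhibitors. The members were taken by gene symbol, as 7 of the 60683 genes counted in every library. The rule itself uses no measured value, but the members were chosen with earlier results of these data known. A549 cells were left untreated, received 2 μM palbociclib, 0.5 μM indisulam or their combination for 10 days, or received 0.5 μM PF-06873600 for 7 days. SUM159 cells were left untreated or received 0.5 μM PF-06873600 for 7 days. Palbociclib inhibits the cell cycle kinases CDK4 and CDK6, PF-06873600 inhibits CDK2 as well, and indisulam is a sulfonamide that brings the splicing factor RBM39 to a ubiquitin ligase for degradation. Each of the 7 groups had 2 libraries, which the submitters describe as technical duplicates of their experiment, so that the p-values below measure only the spread between these libraries, which may be technical. The untreated cells carry no collection time, and the medium of SUM159 held insulin and hydrocortisone, which that of A549 did not.

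Insulin-like growth factors act through the receptor IGF1R, and IGFBP1 to IGFBP6 bind these ligands tightly, holding them away from the receptor, carrying them in blood or releasing them near cells. IGFBP7 binds them weakly and is known mainly as a secreted protein of the extracellular matrix. Proteases such as PAPPA cut certain IGFBPs and set the ligand free, and several IGFBPs are known products of cells that have stopped dividing. All 7 genes stand on one of the senescence gene lists that the study scored in its libraries, and IGFBP2, IGFBP4, IGFBP6 and IGFBP7 also stand on a second one.

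Libraries held 13060374 to 21149256 reads counted on genes. Levels are given as counts divided by this total and scaled to 1000000 reads (CPM), a relative scale on which fewer cells with a transcript and less of it per cell cannot be told apart. A level of 3 counts, taken as the floor of a library, lay between 0.142 and 0.230 CPM and covers counting error only. The labelled tissue was only partly visible in marker genes. In A549 the lung markers NKX2-1, SFTPB and SFTPC summed to at most 0.772 CPM, while the 6 epithelial markers summed to 5573 CPM or more. In SUM159, which the study describes as triple negative breast cancer, the hormone receptors ESR1 and PGR had group means of at most 0.623 CPM. The breast markers ERBB2 and GATA3 had means of 120 and 6.08 CPM in untreated SUM159 and 128 and 6.45 CPM with PF-06873600. In untreated A549 their means were 155 and 0.303 CPM, so GATA3 but not ERBB2 was higher in untreated SUM159. The 4 mesenchymal markers summed to 7333 CPM or more in SUM159.

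Of the 7 genes, 2 pairs are neighbours that point at each other on the genome. Positions are those of GENCODE release 44 on hg38. IGFBP1 (ENSG00000146678, chr7:45888360-45893660, plus strand) ends 18.6 kb before the end of IGFBP3 (ENSG00000146674, chr7:45912245-45921874, minus strand). IGFBP2 (ENSG00000115457, chr2:216632828-216664436, plus strand) ends 7.67 kb before IGFBP5 (ENSG00000115461, chr2:216672105-216695549, minus strand). IGFBP4 (ENSG00000141753) lies at chr17:40443450-40457725 on the plus strand, IGFBP6 (ENSG00000167779) at chr12:53097436-53102345 on the plus strand and IGFBP7 (ENSG00000163453) at chr4:57030773-57110385 on the minus strand. Counts were summed over the exons of each gene, and the 5 genes other than IGFBP5 and IGFBP7 overlapped no other annotated gene. An exon stretch of IGFBP7 of 260 bases is shared with POLR2B on the opposite strand, an RNA polymerase subunit with 1447 to 3652 counts per library, and 94 bases with the antisense gene IGFBP7-AS1, which had at most 16 counts. The pseudogene UBE2CP3 within IGFBP7 shares no exon and had 0 counts in every library. IGFBP5 shares 487 bases of exon with the antisense gene DIRC3-AS1, which had at most 29 counts. The libraries were strand-specific, but whether counting used the strand is not given in the sources used here, so reads of these stretches cannot be assigned with certainty.

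Start site sequences of RefSeq (GRCh38.p14) matched 5 of the 7 genes. The 250 bases before the start are shown for IGFBP3, the gene whose direction differed most between the lines, and for IGFBP5 and IGFBP6, both higher after every treatment of A549 and each matched by a single window, whereas IGFBP2 had 3. They are written 5′ to 3′ on the strand of the gene, and capitals mark the motifs found on either strand. IGFBP3 is taken from chr7:45921273-45921522 (minus strand), IGFBP5 from chr2:216695550-216695799 (minus strand) and IGFBP6 from chr12:53097417-53097666 (plus strand). The starts are those of RefSeq. By the GENCODE positions above, the IGFBP3 window lies within the gene, the IGFBP6 window mostly within it and the IGFBP5 window directly before it.
IGFBP3: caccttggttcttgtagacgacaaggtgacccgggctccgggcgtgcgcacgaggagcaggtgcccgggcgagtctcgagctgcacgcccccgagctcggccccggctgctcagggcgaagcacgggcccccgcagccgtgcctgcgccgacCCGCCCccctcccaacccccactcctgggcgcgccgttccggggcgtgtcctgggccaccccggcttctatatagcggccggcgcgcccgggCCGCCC
IGFBP5: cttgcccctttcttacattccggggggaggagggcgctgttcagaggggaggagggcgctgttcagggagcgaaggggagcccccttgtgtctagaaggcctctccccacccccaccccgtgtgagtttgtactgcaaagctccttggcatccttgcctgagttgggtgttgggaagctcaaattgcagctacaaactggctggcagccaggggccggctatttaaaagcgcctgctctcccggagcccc
IGFBP6: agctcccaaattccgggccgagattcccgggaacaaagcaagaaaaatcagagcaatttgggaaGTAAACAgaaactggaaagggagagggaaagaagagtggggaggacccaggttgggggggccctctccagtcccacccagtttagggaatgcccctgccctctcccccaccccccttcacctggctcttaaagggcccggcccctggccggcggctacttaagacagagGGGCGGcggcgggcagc
Motifs of 5 kinds were searched on both strands. The core bound by FOXO factors was searched as GTAAACA, and the site of the AP-1 factors was searched as TGANTCA with any letter in the middle. For the box near many start sites the letters were TATAAA. The palindrome known as the E-box was searched as CACGTG. For the GC box of the Sp family of factors the letters were GGGCGG. The IGFBP3 window is 76.0% G or C, against a median of 58.0% over 35116 promoter windows, and holds 2 GC boxes in the reverse orientation, a motif present in 42.6% of all windows. The IGFBP6 window holds 1 GC box and 1 FOXO core, which 2.98% of all windows hold. None of the 5 motifs occurred in the IGFBP5 window, of which 61.2% is G or C. A match or its absence describes these letters and says nothing of a factor.

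Untreated A549 and SUM159 cells differed in which IGFBPs they held. Levels between genes were compared per kilobase of annotated exon. In untreated A549 the order from the top was IGFBP4 with 381 ± 16.3 CPM per kb (SD, n = 2), IGFBP3 with 174 ± 8.38, IGFBP6 with 83.4 ± 6.94, IGFBP1 with 40.0 ± 1.36, IGFBP2 with 8.39 ± 0.607, IGFBP5 with 1.60 ± 0.133 and IGFBP7 with 1.26 ± 0.264. The libraries of the last pair, IGFBP5 and IGFBP7, lay close together, at 1.503 and 1.69 against 1.44 and 1.07 CPM per kb. In untreated SUM159 IGFBP4 made up 93.2% of the summed CPM per kb of all 7 genes, against 55.3% in untreated A549. IGFBP6 followed with 4.42% and IGFBP7 with 2.04%, and the other 4 genes each gave less than IGFBP7. As a description of the lines without a test, IGFBP3 had a mean of 795 CPM in untreated A549 and 5.37 CPM in untreated SUM159, IGFBP2 39.8 and 4.39 CPM, and IGFBP6 112 and 36.8 CPM. IGFBP5 was at 10.3 CPM in A549 and had 4 and 0 counts in the SUM159 libraries. IGFBP4 and IGFBP7 went the other way, with 841 and 2.43 CPM in A549 and 1268 and 24.3 CPM in SUM159. IGFBP1 was at 65.7 CPM in A549 and had at most 3 counts in any SUM159 library, which makes it at least 356-fold higher in A549. Cell line and culture medium cannot be told apart in these levels.

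**Figure D1:**
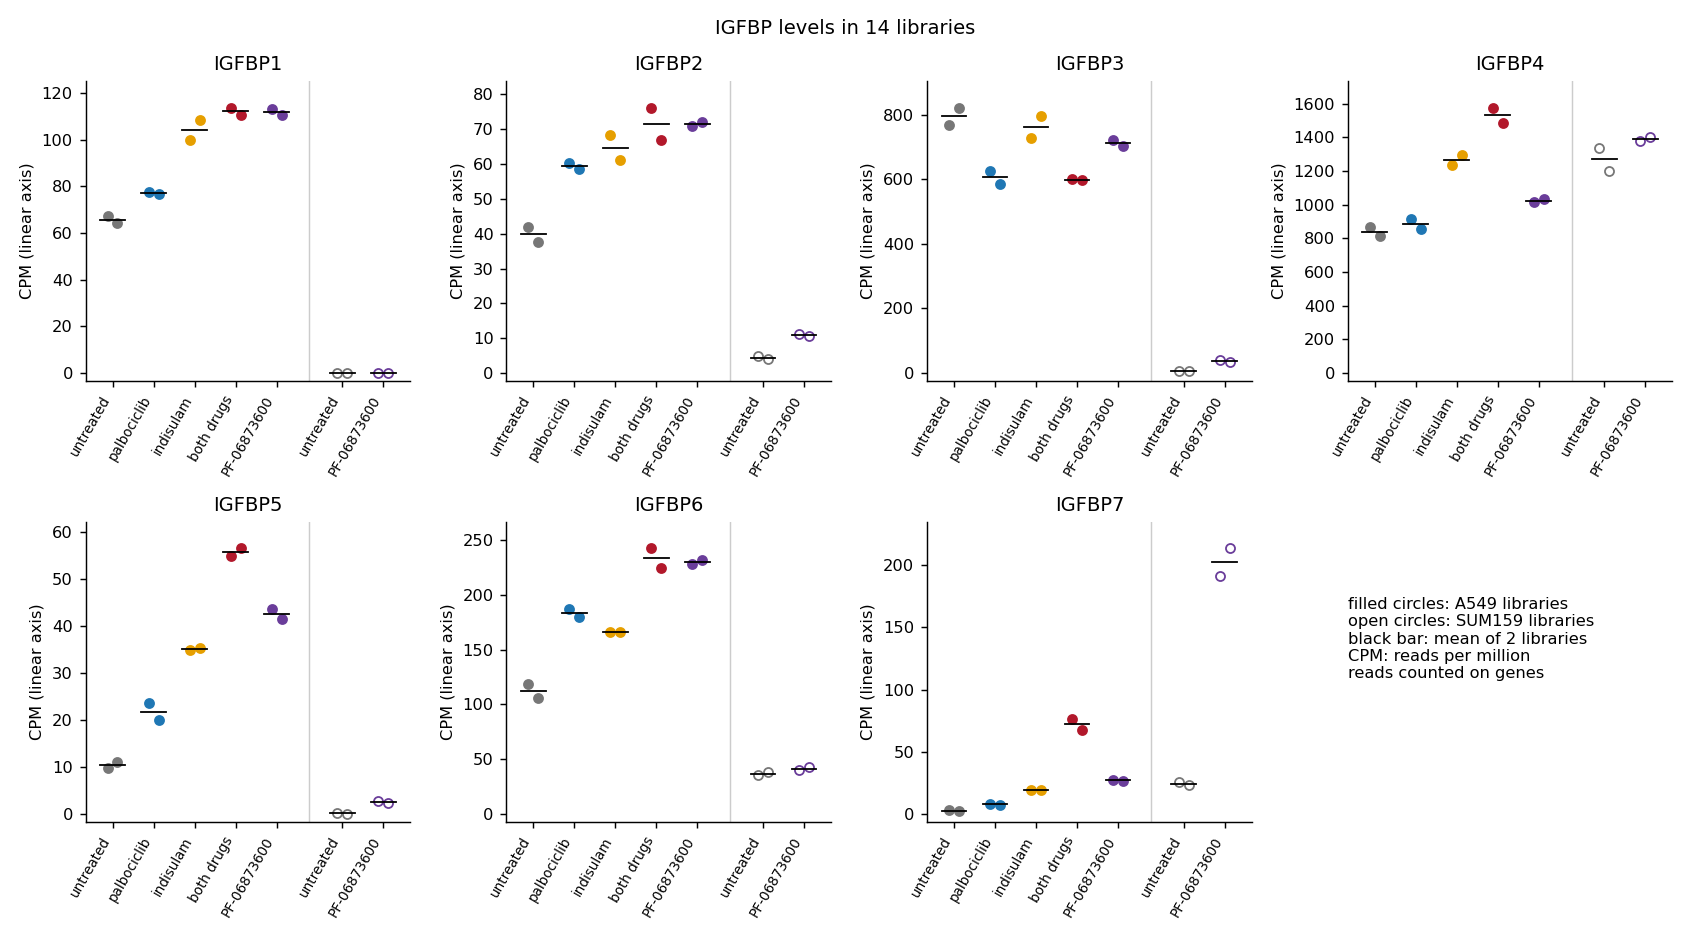
CPM (linear axes) of the 7 IGFBP genes in the 14 libraries, with A549 as filled and SUM159 as open circles and a bar at the mean of 2 libraries. IGFBP7 reached 191 and 214 CPM in SUM159 treated with PF-06873600, whereas IGFBP3 stayed between 586 and 822 CPM in all A549 libraries and under 40 CPM in SUM159.

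The 7 genes were then compared between treatments. Of the 7 genes tested in A549 after palbociclib, 5 were higher than in untreated cells and 1 was lower, while 8.30% of 15780 genes tested were higher and 7.40% lower. The median log2 fold change was 0.58 over the members and -0.01 over all genes tested. IGFBP7 rose from 2.79 and 2.07 CPM to 7.79 and 7.44 CPM, a log2 fold change of 1.65 ± 0.17 (SE; edgeR quasi-likelihood adjusted p = 1.5e-05). IGFBP5, a binding protein that also sticks to the matrix, rose from 9.72 and 10.9 CPM to 23.5 and 20.0 CPM, by 1.07 ± 0.11 on the log2 scale (edgeR adjusted p = 1.1e-05). Treated and untreated libraries of both genes were apart. IGFBP6, which prefers IGF2 over IGF1, rose from 119 and 106 CPM to 187 and 180 CPM (log2 fold change 0.71 ± 0.07). IGFBP2 rose from 41.8 and 37.7 CPM to 60.3 and 58.5 CPM (log2 fold change 0.58 ± 0.08).

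IGFBP3, the main carrier of these growth factors in blood, was the single member that fell after palbociclib. Its libraries went from 768 and 822 CPM to 625 and 586 CPM, a log2 fold change of -0.39 ± 0.06 (edgeR adjusted p = 5.0e-04). IGFBP4 did not pass the test, with 866 and 815 CPM before and 913 and 858 CPM after treatment, and a 95% interval of the log2 fold change from -0.05 to 0.20. IGFBP1, a binding protein known for its regulation by insulin in liver, rose least, from 67.3 and 64.1 CPM to 77.6 and 76.6 CPM (log2 fold change 0.23 ± 0.06, edgeR adjusted p = 0.0250). That call was lost with DESeq2 (adjusted p = 0.0551), with only the compared groups in the model (edgeR adjusted p = 0.149), and in edgeR without untreated replicate 2 (adjusted p = 0.0586), palbociclib replicate 1 (adjusted p = 0.122) or palbociclib replicate 2 (adjusted p = 0.104).

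Indisulam raised 6 of the 7 genes and lowered none at the threshold, against 28.0% of all genes tested higher and 17.5% lower. The median log2 fold change was 0.67 over the members and 0.08 over all genes. With TMM normalization the calls over all genes split into 3613 higher and 3558 lower, compared with 4420 and 2757 here, and the same number of members, 6, was higher. IGFBP7 reached 18.9 and 19.5 CPM, 7.89-fold above untreated cells (95% interval 6.35 to 9.80). IGFBP5 reached 34.8 and 35.2 CPM, 3.39-fold (2.91 to 3.94). Both had a larger fold change here than any other member. IGFBP1 rose to 99.8 and 109 CPM (1.59-fold), IGFBP2 to 68.2 and 61.2 CPM (1.63-fold) and IGFBP6 to 166 and 167 CPM (1.48-fold). IGFBP4, the member with the most reads per kilobase, rose to 1238 and 1292 CPM (1.505-fold, edgeR adjusted p = 1.4e-06). The libraries of these genes lay above all untreated ones. IGFBP3, at 727 and 797 CPM, overlapped the untreated libraries, and the interval of its log2 fold change ran from -0.19 to 0.07.

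With the combination 6 genes were higher and 1 was lower than in untreated A549, against 35.1% and 30.0% of all genes tested. With TMM normalization the calls over all genes split into 4908 higher and 5397 lower, in place of 5544 and 4739, with 6 members higher and 1 lower as before. Over the members the median log2 fold change was 0.87 and over all genes 0.05. IGFBP7 was at 76.4 and 67.8 CPM, 29.6-fold above untreated cells (95% interval 24.5 to 35.8, edgeR adjusted p = 2.8e-13). IGFBP5 was at 54.9 and 56.5 CPM, 5.39-fold (4.66 to 6.23, edgeR adjusted p = 2.7e-11). IGFBP6 was at 243 and 224 CPM, 2.08-fold (1.89 to 2.29). All combination libraries of these genes lay above the libraries of untreated cells and of either drug alone. IGFBP4 was at 1576 and 1487 CPM (1.82-fold), IGFBP2 at 76.2 and 66.9 CPM (1.80-fold) and IGFBP1 at 114 and 111 CPM (1.71-fold). IGFBP3 fell again, to 601 and 597 CPM, by 0.41 on the log2 scale (SE 0.06, edgeR adjusted p = 3.6e-05). Overlapping genes also moved: POLR2B had a log2 fold change of 0.43 and DIRC3-AS1 went from 0.0680 and 0.267 CPM to 2.06 and 1.87 CPM. DIRC3-AS1 passed the filter on low counts only through the combination group, so no p-value is given for it. Marker lists moved in the same libraries. The 4 mesenchymal markers went from a sum of 2250 to 2482 CPM untreated to one of 3682 to 3727 CPM. VIM went from a mean of 665 to 1767 CPM. The sum of the 6 epithelial markers went from 5573 to 6492 CPM to 13239 to 13816 CPM. Of these, 4 were higher and 2 were lower (35.1% and 30.0% of all genes tested). The 2 lower were EPCAM, from a mean of 19.4 to 14.5 CPM, and CDH1, from 156 to 128 CPM. Immune markers summed to at most 1.36 CPM and endothelial markers to at most 1.60 CPM in any A549 library. The part of the overlapping genes and of the mesenchymal and epithelial markers in the IGFBP values was not tested.

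**Figure D2:**
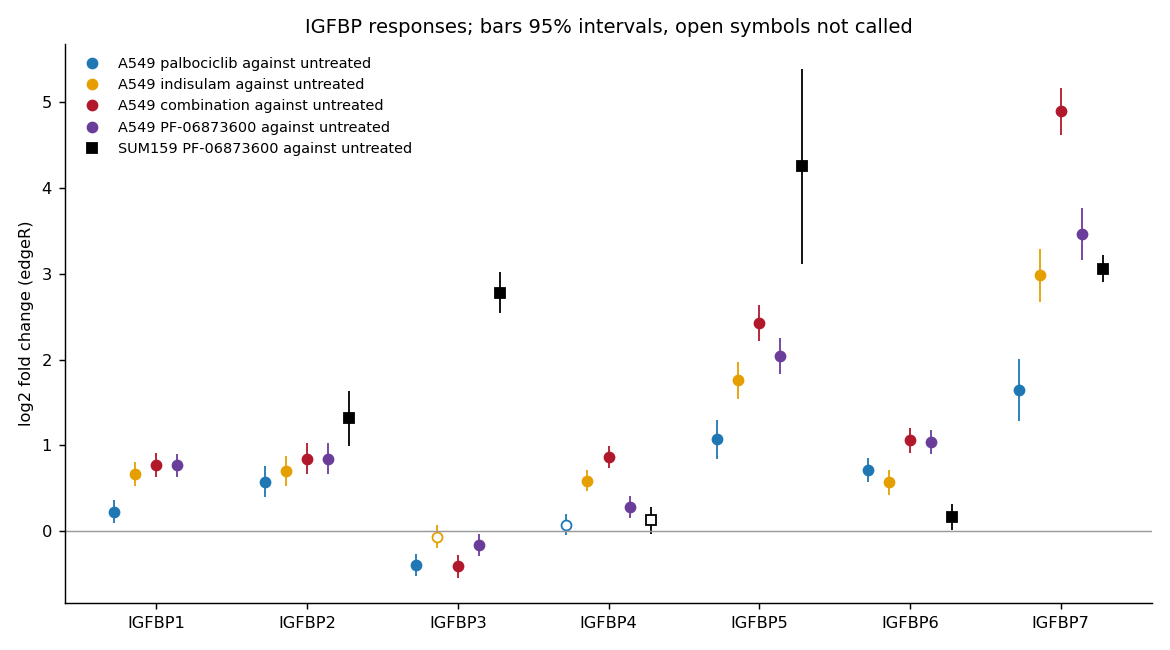
Log2 fold change against untreated cells of the same line (vertical axis) for each IGFBP gene, with 95% intervals as bars, circles for A549, squares for SUM159 and open symbols for genes that did not pass the threshold. IGFBP7 has the largest A549 change under each treatment, up to 4.89 with the combination, and IGFBP1 has no SUM159 symbol because it was not tested there. The filled SUM159 square of IGFBP5, at 4.25, rests on 4 and 0 untreated counts. That gene passed the filter there only through the treated group, and its value ran from 3.31 to 8.48 over the alternatives.

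The combination was also set against each drug alone. Relative to palbociclib, 6 members were higher and none was lower (33.5% and 26.9% of all genes tested). Medians of the log2 fold change were 0.54 over the members and 0.05 over all genes. With TMM 4542 genes were higher and 5067 lower, in place of 5279 and 4250, and 5 members were higher. IGFBP7 differed most, 9.46-fold (95% interval 8.10 to 11.1), followed by IGFBP5 with 2.57-fold, IGFBP4 with 1.73-fold, IGFBP1 with 1.46-fold and IGFBP6 with 1.27-fold. IGFBP3 was close in both, at 0.99-fold with an interval of 0.904 to 1.08. The smallest called difference was that of IGFBP2, 1.20-fold (edgeR adjusted p = 0.0102). This call was lost with TMM normalization (adjusted p = 0.0708), with DESeq2 (adjusted p = 0.0629), and in edgeR without palbociclib replicate 2 (adjusted p = 0.0641) or without combination replicate 1 (adjusted p = 0.149).

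Relative to indisulam, 4 members were higher and 1 was lower with the combination (22.0% and 23.9% of all genes tested), and the medians were 0.28 over the members and -0.02 over all genes. IGFBP7 was 3.76-fold higher (95% interval 3.28 to 4.30), IGFBP5 1.59-fold, IGFBP6 1.40-fold and IGFBP4 1.21-fold (edgeR adjusted p = 0.00119). IGFBP3 was the member that fell, by 0.35 on the log2 scale (SE 0.06, edgeR adjusted p = 3.2e-04), so that it was lower wherever palbociclib was present and did not pass the test where indisulam was given alone. IGFBP1 and IGFBP2 were not called, with intervals of 0.983 to 1.18-fold and 0.981 to 1.24-fold. These comparisons share libraries with each other and with those against untreated cells.

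An interaction term asked whether the combination differed from the sum of both single-drug changes on the log2 scale. No member exceeded the sum at the threshold and 2 fell short of it, while 10.7% of all genes tested lay above and 14.5% below. The sum for IGFBP7 was 4.63 and the combination gave 4.89, a difference of 0.26 with an interval of -0.18 to 0.70. For IGFBP2 the sum was 1.28 and the combination 0.85 (interaction -0.43 ± 0.12, edgeR adjusted p = 0.0135). For IGFBP5 the sum was 2.83 and the combination 2.43 (interaction -0.40 ± 0.14, edgeR adjusted p = 0.0453). The IGFBP2 call was lost without indisulam replicate 1 (edgeR adjusted p = 0.0698) and without combination replicate 2 (edgeR adjusted p = 0.0811). The IGFBP5 call was kept in 4 of 14 alternatives, with adjusted p from 0.0209 to 0.201, and was lost when indisulam replicate 1 or 2, combination replicate 1 or 2, untreated replicate 1 or palbociclib replicate 1 was left out, and with the replicate number as a block (edgeR adjusted p = 0.0560). IGFBP4, with an interaction of 0.20 ± 0.08, was called only without untreated replicate 2 (edgeR adjusted p = 0.0133), and IGFBP6, with -0.22 ± 0.09, only without untreated replicate 1 (edgeR adjusted p = 0.00548).

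**Figure D3:**
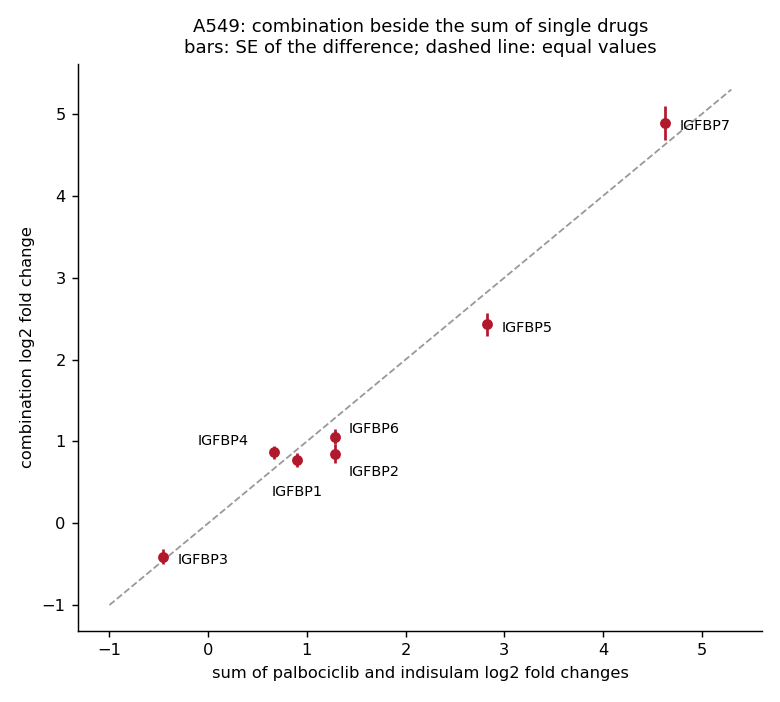
Log2 fold change of the combination (vertical axis) beside the sum of the palbociclib and indisulam log2 fold changes (horizontal axis) in A549, with the standard error of their difference as bars and a dashed line of equal values. IGFBP2 (1.28 and 0.85) and IGFBP5 (2.83 and 2.43) lie below the line, and IGFBP7 (4.63 and 4.89) lies above it by little more than 1 standard error.

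PF-06873600 changed all 7 members in A549, with 6 higher and 1 lower than in untreated cells, against 28.5% and 27.8% of all genes tested. Over the members the median log2 fold change was 0.85, and it was -0.01 over all genes. IGFBP7 was at 27.1 and 26.5 CPM (log2 fold change 3.46 ± 0.14, edgeR adjusted p = 6.3e-11) and IGFBP5 at 43.6 and 41.5 CPM (2.04 ± 0.10, edgeR adjusted p = 4.8e-10). IGFBP6 was at 228 and 231 CPM, IGFBP2 at 71.0 and 72.0 CPM and IGFBP1 at 113 and 111 CPM, and their log2 fold changes were 1.04, 0.85 and 0.77. IGFBP4 rose to 1014 and 1032 CPM (log2 fold change 0.28 ± 0.06). Every treated library of these 6 genes lay above the untreated ones. IGFBP3 was lower at 721 and 703 CPM (log2 fold change -0.16 ± 0.06, edgeR adjusted p = 0.0376). The IGFBP3 call was lost with TMM (adjusted p = 0.0602), with DESeq2 (adjusted p = 0.0972), with only the compared groups (edgeR adjusted p = 0.0822), and in edgeR without untreated replicate 2 (adjusted p = 0.128), PF-06873600 replicate 1 (adjusted p = 0.101) or PF-06873600 replicate 2 (adjusted p = 0.189). Since PF-06873600 was given for 7 days and the other drugs for 10, it was not tested against them. Side by side, IGFBP1, IGFBP2 and IGFBP6 had overlapping libraries under PF-06873600 and the combination, while IGFBP7 had 27.1 and 26.5 CPM under the former and 76.4 and 67.8 CPM under the latter.

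**Figure D4:**
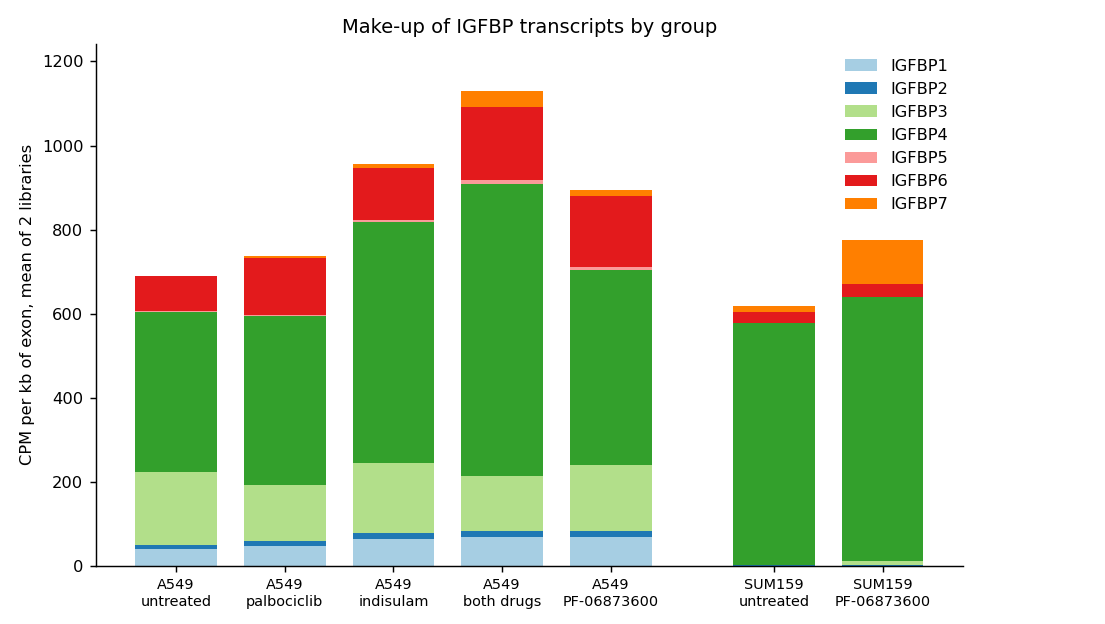
Stacked mean CPM per kilobase of exon of the 7 IGFBP genes in each group (linear axis from 0, mean of 2 libraries). The stack reaches 690 in untreated A549 and 1129 with the combination, and IGFBP4 fills 51.9% to 61.5% of it in the A549 groups and 93.2% and 81.1% in SUM159.

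Summed over the 7 genes, 1866 ± 11.7 CPM of the untreated A549 libraries came from IGFBPs (SD, n = 2). The sums were 1841 ± 76.7 CPM with palbociclib, 2416 ± 90.5 with indisulam, 2676 ± 91.9 with the combination and 2218 ± 0.196 with PF-06873600. The palbociclib and untreated sums of CPM overlapped between libraries, with the mean of IGFBP3 lower and those of the other 6 genes higher. Per kilobase of exon the sums were apart, at 702 and 678 CPM per kb untreated and 758 and 717 with palbociclib. By reads per kilobase IGFBP7 ranked 7 of 7 in untreated A549 and 5 of 7 with the combination, where its share of the summed CPM per kb went from 0.182% to 3.31%. IGFBP3 held the second place in untreated and indisulam-treated cells and IGFBP6 in the other 3 A549 groups. IGFBP3 and IGFBP6 overlapped with palbociclib alone, at 133 ± 6.11 and 137 ± 3.78 CPM per kb.

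In SUM159, 6 members passed the filter on low counts, 1 of them, IGFBP5, only through the treated group. Of the other 5, 4 were higher after PF-06873600 and none was lower, against 38.1% and 35.6% of 15055 genes tested. The median log2 fold change was 1.31 over these 5 members and 0.02 over all genes. The values over all genes were taken without leaving out those that passed the filter through 1 group only. IGFBP7 rose from 25.6 and 23.1 CPM to 191 and 214 CPM, 8.32-fold (95% interval 7.45 to 9.28, edgeR adjusted p = 7.8e-14). IGFBP3 rose from 5.61 and 5.14 CPM to 39.1 and 34.99 CPM, 6.86-fold (5.82 to 8.10, edgeR adjusted p = 1.4e-11). IGFBP2 rose from 4.82 and 3.95 CPM to 11.2 and 10.7 CPM, 2.49-fold (1.99 to 3.11, edgeR adjusted p = 1.5e-06). The treated libraries of all 3 genes lay well above the untreated ones.

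IGFBP5 had 4 and 0 counts in the untreated SUM159 libraries and 45 and 49 counts in the treated ones. The ratio of its pooled CPM was 20.0 with an exact 95% counting interval of 7.56 to 74.9, and its fitted log2 fold change ran from 3.31 to 8.48 over the alternatives, the extremes without untreated replicate 2 and without untreated replicate 1. IGFBP6 was near its untreated level, at 40.0 and 42.4 CPM after 35.6 and 38.0 CPM (log2 fold change 0.17 ± 0.07, edgeR adjusted p = 0.0495). This call was lost with DESeq2 (adjusted p = 0.228), without a filter (edgeR adjusted p = 0.0924), and in edgeR without untreated replicate 1 (adjusted p = 0.183), PF-06873600 replicate 1 (adjusted p = 0.0697) or PF-06873600 replicate 2 (adjusted p = 0.313). IGFBP4 was not called, at 1335 and 1202 CPM before and 1377 and 1399 CPM after treatment (edgeR adjusted p = 0.121). It was called without a filter (edgeR adjusted p = 0.0409) and without untreated replicate 1 (edgeR adjusted p = 1.5e-05). IGFBP1 was at or under the floor in all 4 libraries, with 3 and 0 counts untreated and 1 and 3 counts treated, and no fold is given. The sum of all 7 genes went from 1339 ± 94.98 to 1682 ± 29.2 CPM (SD, n = 2).

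Markers of other cell types moved in the same SUM159 libraries. The 3 immune markers summed to 9.53 to 9.96 CPM untreated and 18.1 to 20.4 CPM treated, nearly all from PTPRC, with CD3E at 0 and CD68 at group means of at most 0.124 CPM. The 2 endothelial markers summed to 11.04 to 11.6 CPM and 26.0 to 28.0 CPM, nearly all from PECAM1, with VWF at group means of at most 0.447 CPM. The 4 mesenchymal markers went from a sum of 7333 to 7776 CPM to one of 17569 to 17680 CPM. The fibronectin gene FN1 carried this, with group means of 3146 and 13737 CPM, while VIM had 4162 and 3609 CPM. The 6 epithelial markers went from a sum of 2532 to 2676 CPM to one of 1139 to 1175 CPM in SUM159. There KRT7 had group means of 1877 and 720 CPM, KRT8 417 and 266 CPM and KRT18 309 and 170 CPM. EPCAM, CDH1 and KRT19 had group means of at most 0.740 CPM, and CDH1 went up, from 0.0905 to 0.740 CPM. In A549 the sum of the 6 epithelial markers went from 5573 to 6492 CPM untreated to 14356 to 14449 CPM with PF-06873600. There 4 of them were higher and 2 were lower (28.5% and 27.8% of all genes tested). The 2 lower were EPCAM, from a mean of 19.4 to 8.04 CPM, and CDH1, from 156 to 95.6 CPM. The part of all these markers in the IGFBP values was not tested. POLR2B, which overlaps IGFBP7, fell in SUM159 by 0.39 on the log2 scale.

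Whether the cell lines responded differently to PF-06873600 was tested in a single model of all 14 libraries. Of the 7 members, 3 had a higher log2 fold change in SUM159 and 1 a lower one, against 25.8% and 27.2% of 17279 genes tested. This count includes IGFBP1, which was not called. It had at most 3 counts in any SUM159 library and passed the filter through A549 alone. The 3 higher include IGFBP5, with 4 and 0 counts in untreated SUM159, so the count is not read as a result about the members. IGFBP3 differed most, by 2.94 ± 0.12 on the log2 scale (edgeR adjusted p = 6.0e-13), since it went up in SUM159 and not in A549. Its level in treated SUM159, 39.1 and 34.99 CPM, was still far below the lowest A549 library at 586 CPM. IGFBP6 responded less in SUM159 than in A549 (difference -0.87 ± 0.10, edgeR adjusted p = 3.7e-07). IGFBP5 differed by 2.196 ± 0.57 (edgeR adjusted p = 0.00295), which rests on the 4 untreated SUM159 counts. It ran from 1.27 without untreated SUM159 replicate 2, where the call was lost (edgeR adjusted p = 0.0822), to 6.22 without untreated SUM159 replicate 1. IGFBP2 differed by 0.47 ± 0.16 (edgeR adjusted p = 0.0221), and the call was lost without untreated A549 replicate 1 (adjusted p = 0.0586), untreated SUM159 replicate 2 (adjusted p = 0.173) or treated SUM159 replicate 1 (adjusted p = 0.0595). IGFBP7, with the largest rise in A549, did not pass (difference -0.41, 95% interval -0.81 to -0.01, edgeR adjusted p = 0.0807), but did without untreated A549 replicate 1 (adjusted p = 0.0455) or treated SUM159 replicate 2 (adjusted p = 0.0416). IGFBP4 passed only without untreated SUM159 replicate 2 (edgeR adjusted p = 0.0353).

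The partners of the IGFBPs were followed with a list of 35 genes of the same axis: ligands, receptors, adaptors, IGFBP proteases, protease inhibitors and proteins that carry an IGFBP domain. The genes of the ligands IGF1, IGF2 and INS were not tested in any comparison, as no library exceeded 0.579 CPM, and INS had 0 counts. Genes with under 10 counts in every library of either group compared were left out of the counts that follow, which removed ESM1 and HTRA3 of 25 axis genes tested in A549 and PAPPA2, ADAM28 and ESM1 of 24 tested in SUM159. The shares and medians over all genes tested, given beside these counts here and below, were taken without this cut. Of the other 23 in A549, 7 were higher and 2 lower with palbociclib (8.30% and 7.40% of all genes tested), 12 and 3 with indisulam (28.0% and 17.5%), 16 and 4 with the combination (35.1% and 30.0%), and 13 and 5 with PF-06873600 (28.5% and 27.8%). In SUM159, 13 of 21 were higher and 6 lower (38.1% and 35.6%). The median log2 fold change over these genes was 0.07, 0.30, 0.60, 0.38 and 0.50 in this order, beside -0.01, 0.08, 0.05, -0.01 and 0.02 over all genes tested.

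The receptor IGF1R went opposite ways in the lines after PF-06873600. Its log2 fold change was 0.25 ± 0.06 in A549, from a mean of 149 to 178 CPM, and -0.56 ± 0.07 in SUM159, from 50.3 to 34.2 CPM, and both passed the test. IGF2R, which takes up IGF2 for degradation, rose in SUM159 from 174 and 216 CPM to 525 and 554 CPM (log2 fold change 1.47 ± 0.08). Among adaptors that pass on the receptor signal, IRS2 fell with the combination from 101 and 83.7 CPM to 27.7 and 28.7 CPM (log2 fold change -1.71 ± 0.09) and with PF-06873600 to 31.8 and 31.5 CPM. IRS1 rose in A549 under each treatment, up to 2.08-fold with PF-06873600, and SHC1 rose 2.01-fold with the combination and 2.17-fold with PF-06873600.

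Of the 6 genes listed as IGFBP proteases, 5 were tested in A549. Higher were 2 with palbociclib (8.30% of all genes tested), 3 with indisulam (28.0%) and 3 with the combination (35.1%). None was lower, against 7.40%, 17.5% and 30.0% of all genes tested. With PF-06873600 3 were higher and 1 was lower (28.5% and 27.8%). The lower one was ADAM9, at 605 and 603 CPM after 634 and 714 CPM. In SUM159 the 3 proteases with at least 10 counts in a library of each group, ADAM9, ADAM12 and CTSD, were higher. Of all genes tested there, 38.1% were higher. PAPPA, which cuts IGFBP4, went in A549 from 36.2 and 44.1 CPM untreated to 197 and 203 CPM with indisulam and 217 and 226 CPM with the combination, 4.98-fold and 5.51-fold. It rose 1.66-fold with palbociclib and 4.38-fold with PF-06873600, and it was not tested in SUM159, where no library exceeded 0.898 CPM. ADAM12, which cuts IGFBP3 and IGFBP5, rose from 6.32 and 9.53 CPM to 43.3 and 44.2 CPM with the combination (5.51-fold). In SUM159 CTSD rose 3.54-fold, ADAM9 from a mean of 301 to 710 CPM and ADAM12 from a mean of 174 to 247 CPM. The other 2 proteases tested there, PAPPA2 and ADAM28, passed the filter only through the treated group. PAPPA2 was at 5.38 and 3.26 CPM from 0.181 and 0.125 CPM and ADAM28 at 2.57 and 2.74 CPM from 0.0603 and 0.125 CPM. HTRA1, a secreted protease counted here among the proteins with an IGFBP domain, rose in SUM159 from 39.9 and 37.7 CPM to 325 and 326 CPM (8.38-fold). STC1, an inhibitor of PAPPA, rose in all 5 comparisons with untreated cells, from 29.1 to 146 CPM on average with the combination and from 27.9 to 104 CPM in SUM159. STC2, a second inhibitor, was lower with each single drug and with PF-06873600 in A549, but higher with the combination (67.5 to 102 CPM on average, log2 fold change 0.60 ± 0.06).

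Of the genes of proteins with an IGFBP domain, 8 had at least 10 counts in a library of both groups in A549, and 6 of these were higher and 1 was lower with the combination (35.1% and 30.0% of all genes tested). CCN5 rose from 2.51 and 2.87 CPM to 45.7 and 42.5 CPM (16.3-fold) and CCN1 from 8.16 and 8.9996 CPM to 67.2 and 71.8 CPM (8.09-fold). CCN2, which is among the known targets of the YAP pathway, rose 3.99-fold with the combination and fell in SUM159 from 253 and 225 CPM to 99.4 and 93.6 CPM. CCN3 rose from 39.4 and 36.5 CPM to 84.0 and 95.6 CPM with PF-06873600 (2.37-fold). KAZALD1 was the gene that fell with the combination, from 10.5 and 9.80 CPM to 2.69 and 2.12 CPM. In SUM159 5 of 9 such genes were higher and 3 were lower (38.1% and 35.6%), CRIM1, CCN1 and CCN2. HTRA3 rose from 71.5 and 67.3 CPM to 156 and 149.7 CPM (2.202-fold), CCN4 rose from 9.29 and 8.52 CPM to 58.2 and 56.2 CPM (6.41-fold), and ESM1, which passed the filter only through the treated group, went from 0 counts in both untreated libraries to 18 and 27 counts, at least 6.31-fold higher.

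**Figure D5:**
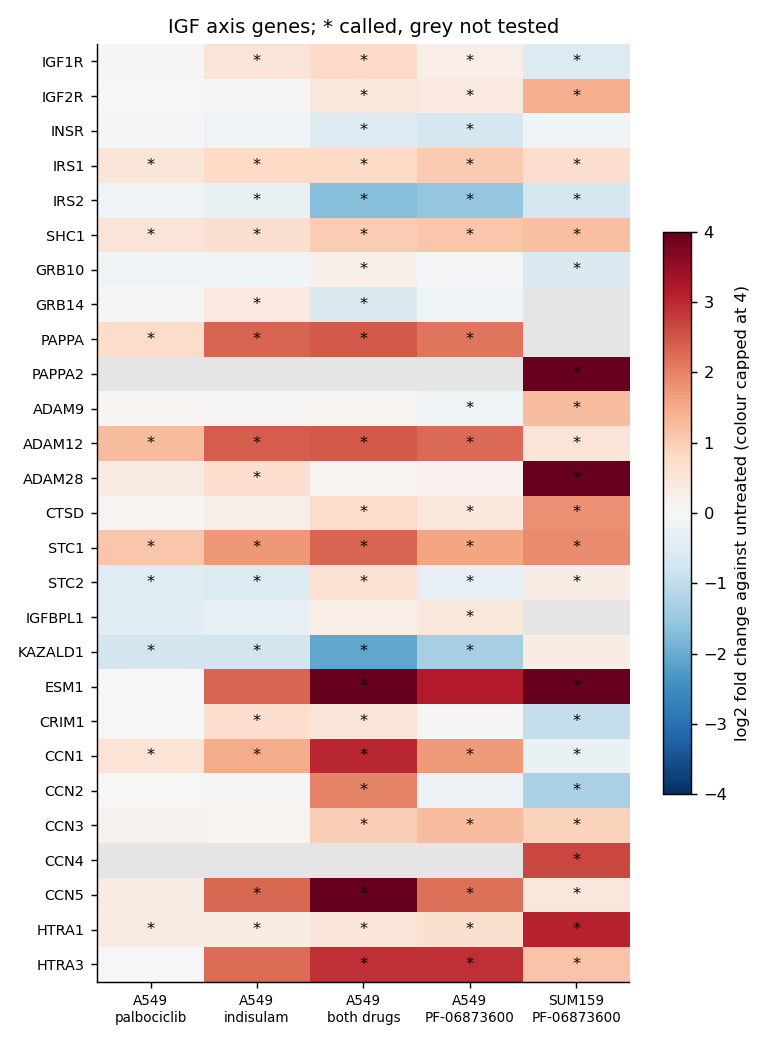
Log2 fold change against untreated cells of the same line (colour, capped at 4 in both directions) of the axis genes tested in at least 1 of 5 comparisons, with an asterisk where the threshold was passed and grey where the gene was not tested. Colours and asterisks are drawn without the cut on low counts used in the text. They include ESM1 and HTRA3 in A549 and PAPPA2, ADAM28 and ESM1 in SUM159, which that cut left out. PAPPA, ADAM12 and STC1 are red in all tested A549 columns, and IRS2 and KAZALD1 are darkest blue with the combination.

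The genes whose mean log2 CPM over the 7 groups followed each member most closely were found among 11320 genes that reached 10 CPM in a group. Because 5 groups are A549 and 2 are SUM159, the coefficient mostly reflects the gap between the lines, and it is given as a description. CNNM1 was nearest to IGFBP1 (Pearson r = 0.9997), RHPN1 to IGFBP2 (0.9986), GCNT3 to IGFBP3 (0.9991), SRGAP2 to IGFBP4 (0.989), ENC1 to IGFBP5 (0.996) and NPY4R2 to IGFBP6 (0.995). IGFBP7, with a pattern that spans both lines, had AMDHD2 (0.9973) and the metalloproteinase inhibitor gene TIMP2 (0.9931).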

How the data were processed

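Poly(A) RNA of 14 libraries in 7 groups was sequenced from strand-specific libraries. The authors deposited for each library the raw read counts per gene, whole numbers without normalization, for 60683 Ensembl identifiers and 9 summary lines, which were left out of library sizes (ambiguous reads made up 3.02% to 3.47% of alignment lines other than secondary ones). The submitters' processing notes name HISAT2 2.2.1, HTSeq and GRCh38. The annotation release and the strand setting are not given in the sources used here. Reads carry no molecular identifiers, so floors and intervals cover counting error only.

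Symbols came from GENCODE release 44, which matched 60370 identifiers. CPM was the count divided by the total over genes. Genes kept by filterByExpr of edgeR 4.0.16 (R 4.3.3) were tested with the quasi-likelihood F test, libraries scaled by total count, with Benjamini-Hochberg adjustment over all genes tested and a threshold of 0.05. One model held the 10 A549 libraries, one the 4 of SUM159 and one all 14. A standard error was obtained from F as the size of the log2 fold change over its square root, and 95% intervals used the t quantile of the total degrees of freedom. The common biological coefficient of variation came to 0.0555 (A549) and 0.0472 (SUM159). With 2 libraries on each side an exact permutation test reaches a two-sided p of 0.33 at best and was not used. The labels give no batch. No replicate pair agreed within sampling noise (chi-square per degree of freedom 1.61 to 9.57). The untreated pairs agreed least, with 9.57 in A549 and 9.05 in SUM159, against 1.61 to 5.04 in the treated groups.

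The members and gene lists were chosen with earlier results of these data known. Named are the 7 members, axis genes past the threshold with a log2 fold change of at least 1 in a comparison with untreated cells and at least 1 CPM, overlapping genes and the genes of most similar pattern. IGF1R, STC2, CRIM1 and the ligands lie outside this rule and were named after their values were seen. Leaving genes with under 10 counts in every library of a group out of list counts was also chosen after seeing the data. Alternatives were TMM, DESeq2 1.42.0, no filter, a minimum mean count of 50, models of only the compared groups, the replicate block and each library left out. Steps were tested on simulated data. Figures used matplotlib 3.10.9.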

Additional observations from a re-analysis of the deposited data

Results flagged for a closer look

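Effects that differed between conditions by a test of the difference itself were singled out. In A549 the palbociclib by indisulam interaction of IGFBP2 was -0.43 and that of IGFBP5 -0.40 on the log2 scale. For these genes the log2 fold change of the combination was thus less than the sum of those of both drugs. The IGFBP2 call was kept in 12 of 14 alternatives and the IGFBP5 call in 4 of 14. Between the lines, the response to PF-06873600 was larger in SUM159 by 2.94 for IGFBP3, by 2.196 for IGFBP5 (1.27 to 6.22 over the alternatives, with 4 and 0 counts in untreated SUM159) and by 0.47 for IGFBP2, and lower for IGFBP6 (-0.87), all on the log2 scale. Of these 6 values, those of IGFBP3 and IGFBP6 kept their call in all 13 alternatives of the line comparison. Groups of 2 libraries are too small for a test of outlying samples.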

How the results depend on the processing

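Of 669 recomputed IGFBP log2 fold changes, 620 kept their direction and side of the threshold, 36 lost and 7 gained a call, and 6 changed sign. The sign changes concerned values near 0 or at the floor: IGFBP3 with indisulam without indisulam replicate 1 (0.0042, with a range over libraries left out of -0.13 to 0.0042), IGFBP3 with the combination against palbociclib without palbociclib replicate 1 (0.033, range -0.061 to 0.033), the IGFBP3 drug interaction without untreated replicate 2 (-0.0037), palbociclib replicate 2 (-0.00027) or indisulam replicate 1 (-0.019; range -0.019 to 0.11), and the IGFBP1 line interaction without untreated SUM159 replicate 1 (3.04, range -1.52 to 3.04). The number of members called stayed within 1.5 times its value in 88 of 97 cases. The others were all in the drug interaction, where 2 members were called and 1 remained with DESeq2, without a filter, with the replicate block and with only the compared groups, and 0 to 3 when a library was left out. Over all genes, 2478 were called for palbociclib, against 1589 with DESeq2, 949 with only the compared groups and 1301 to 3331 without one library (1472 without palbociclib replicate 1, 1301 without replicate 2), and the cause was not tested.

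The replicate numbers name libraries only, and deviations of same-numbered libraries correlated from -0.217 to 0.166. In the fit with the replicate block, palbociclib had 1258 higher and 1079 lower genes, and of the IGFBP calls only the drug interaction of IGFBP5 was lost. The correlation of -0.217 for palbociclib led to a crossed numbering, chosen after seeing the data, which gave 1556 higher and 1467 lower genes. TMM moved the median of all genes by less than 0.1 (log2) in every comparison. The 2 libraries per group and the counts of IGFBP5 and IGFBP1 in SUM159 limit the precision.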
